A study of Mus musculus with 8 samples.

Results

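The early neuron differentiation genes are a list of 35 genes, named for their known roles in the first steps of neuron formation. They fall into 6 classes: proneural factors, transcription factors of newly formed neurons, factors of neuronal subtypes, RNA-binding proteins, genes of the cytoskeleton and growth cone, and genes of the synapse and cell membrane. On the arrays 59 probes carried a member's name, and 33 of the 35 members were among the 17102 genes tested. The older names Nef3 and Hlxb9 on the list are given here as Nefm and Mnx1.

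The samples were 8 pools of total RNA, each from 3 to 4 whole mouse embryos at embryonic day 9.0. Of these, 4 pools were wild type and 4 were Arid3b-null, that is, from embryos without a working copy of Arid3b, a transcription factor that binds AT-rich DNA. The sources used here give neither the strain nor the allele, and no other agent or allele is named for either group. They do not say either whether each pool had its own litters, so p-values speak only of the spread among these 8 pools. The comparison asks which transcripts of the whole embryo differ in level when Arid3b is missing.

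Neurons arise from dividing progenitors of the neural tube and, for the peripheral ganglia, from cranial placodes and the neural crest. Proneural factors of the basic helix-loop-helix family commit a progenitor to become a neuron, bind short DNA motifs called E-boxes, and turn on a next tier of transcription factors. The new cell leaves the cell cycle, starts to make neuronal tubulin, neurofilaments and RNA-binding proteins, and takes up a subtype such as motor neuron or sensory neuron. Notch signals from the new neurons keep their neighbours as progenitors.

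Levels are log2 Cy3 signals minus the 75th percentile of the same array, so a level of 0 is the signal that 75% of that array's probes do not exceed. Differences are null minus wild type on this log2 scale. A gene was called changed when its Benjamini-Hochberg adjusted p, from limma over all genes tested, was under 0.05. On the arrays 60.9% to 65.0% of probe spots were well above background, at most 2 spots an array were saturated, and all genes tested had a median difference of -0.01. The 3 probes of Arid3b read 25.0% to 36.1% of the wild-type mean in null pools 1 to 3 and 44.0% to 54.2% in null pool 4, which stood apart from the others. Its brightest probe had a difference of -1.35 (SE 0.15, n = 4 and 4, limma adjusted p = 0.00577), and the sources used here do not say where the probes lie relative to the missing part of the gene. Each array slide held pools 1 and 2 or pools 3 and 4 of both genotypes, with wild-type pools in positions 1 and 2 and null pools in positions 3 and 4, so position and genotype cannot be told apart.

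Promoter sequences are shown for the 4 members that were called lower and for Isl2, a member whose level was nearly equal in both groups. Each runs from 250 bases before to 50 bases after a start of the gene in the RefSeq table for GRCm38.p6, 5′ to 3′ on the gene's strand, and capitals mark 4 forms of E-box found on either strand. CAGCTG is the form searched first, CAGATG the next, then CAGGTG, with CATATG searched last. Neurod4 lies on the minus strand (chr10:130280089-130280388), and the more downstream of its 2 starts is shown. Nhlh1 also lies on the minus strand (chr1:172057547-172057846). Nhlh2 (chr3:102009895-102010194), Myt1 (chr2:181763082-181763381) and Isl2 (chr9:55540899-55541198) lie on the plus strand, and the most upstream of the 3 starts of Myt1 is shown.
Neurod4: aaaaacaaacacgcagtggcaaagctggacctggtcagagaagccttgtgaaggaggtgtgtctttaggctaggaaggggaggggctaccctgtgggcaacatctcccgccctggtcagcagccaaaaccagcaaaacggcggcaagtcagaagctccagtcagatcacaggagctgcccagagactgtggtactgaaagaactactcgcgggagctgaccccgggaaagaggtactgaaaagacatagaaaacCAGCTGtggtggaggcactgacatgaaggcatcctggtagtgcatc
Nhlh1: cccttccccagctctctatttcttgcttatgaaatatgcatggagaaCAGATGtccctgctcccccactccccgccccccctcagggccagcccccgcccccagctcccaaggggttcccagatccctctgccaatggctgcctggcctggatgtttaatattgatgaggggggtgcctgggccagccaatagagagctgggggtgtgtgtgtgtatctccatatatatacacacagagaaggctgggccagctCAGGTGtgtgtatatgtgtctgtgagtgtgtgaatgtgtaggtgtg
Nhlh2: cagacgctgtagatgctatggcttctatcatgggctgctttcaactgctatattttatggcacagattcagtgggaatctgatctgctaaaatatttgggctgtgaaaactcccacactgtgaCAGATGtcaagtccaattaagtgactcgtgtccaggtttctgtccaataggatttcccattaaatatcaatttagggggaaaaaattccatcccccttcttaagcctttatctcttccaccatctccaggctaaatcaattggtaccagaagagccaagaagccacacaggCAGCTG
Myt1: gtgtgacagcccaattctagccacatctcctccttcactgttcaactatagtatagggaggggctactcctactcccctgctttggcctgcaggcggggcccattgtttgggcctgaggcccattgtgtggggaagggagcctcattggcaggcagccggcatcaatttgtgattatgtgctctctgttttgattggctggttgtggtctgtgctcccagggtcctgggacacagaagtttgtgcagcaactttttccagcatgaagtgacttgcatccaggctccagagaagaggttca
Isl2: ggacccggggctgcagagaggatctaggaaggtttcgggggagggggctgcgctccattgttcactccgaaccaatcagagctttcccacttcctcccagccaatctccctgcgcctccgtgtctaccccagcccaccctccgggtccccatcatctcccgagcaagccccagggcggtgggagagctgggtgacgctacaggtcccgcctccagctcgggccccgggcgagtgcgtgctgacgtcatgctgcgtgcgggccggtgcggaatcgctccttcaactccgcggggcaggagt

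In these windows Neurod4 held CAGCTG 4 bases after its start. Nhlh1 held CAGATG 203 bases before and CAGGTG 4 bases after its start, and Nhlh2 held CAGATG 127 bases before and CAGCTG 44 bases after. None of the 3 Myt1 windows, not the Isl2 window and not the other Neurod4 window held any of the marked E-boxes. The windows of Mnx1 and Pou4f1, subtype factors that like Isl2 were not called, each held CAGCTG and CAGGTG. Of the 35 members, 26 were in the promoter table, with 42 starts, several of them of the same gene and overlapping. CAGCTG was found in 28.6% of the members' windows and in 16.3% of all 32851 windows of 300 bases. The shares were 16.7% and 17.2% for CAGATG, 16.7% and 20.2% for CAGGTG, and 2.38% and 3.91% for CATATG. The general E-box CANNTG, which includes these 4, was in 64.3% of the members' windows and 72.3% of all. ATTAAA, an AT-rich hexamer of the kind ARID3 proteins are known to bind, was in 9.52% against 13.9%. The members' windows that held it were those of Nhlh1 and Nhlh2 and overlapping windows of Elavl4, a member that was not called. These matches describe letters in the windows and are no evidence of binding.

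The null embryos had lower levels of 4 members, all transcription factors: Neurod4 among the proneural factors, and Nhlh1, Nhlh2 and Myt1 among the factors of newly formed neurons. No member was called higher, and 29 were not called in either direction. The 4 of 33 members called lower stand beside 1.35% of all genes tested, and the 0 called higher beside 2.85% (4.20% of all genes in either direction). Without calls, the null mean was lower for 31 of the 33 members, against 51.2% of all genes. All 4 null pools lay below all 4 wild-type pools for 10 members (8.06% of all genes), and above them for 0 (8.08% of all genes). An unadjusted p under 0.05 was found for 16 members, each of them lower (10.1% of all genes), and the median difference was -0.25 over the members. In RNA of whole embryos, fewer cells of a type and less RNA per cell cannot be told apart.

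Neurod4 and Nhlh2 passed the filter on dim probes through the wild-type arrays alone, so neither their calls nor the counts and median over the 33 members are support for a shift of the list. Over the 30 members well above background on all 8 arrays, 2 were called lower, Myt1 and Nhlh1, beside 1.85% of the 15685 genes tested that way, and the median was -0.23. Same-numbered pools of both genotypes deviated together from their group means, and a fit that took the replicate number as its block called 7 members lower, beside 5.92% of all genes. That fit added Cntn2, Ebf2 and Tubb3. With the slide as a block 6 members were called (3.30% of all genes). Within slide 1 the median was -0.26 and within slide 2 it was -0.24, and neither slide alone called a member, with 7 and 15 members at an unadjusted p under 0.05. Without wild-type pool 1, 2 or 3, Neurod4 alone was called. Over all 17102 genes, 17 were called lower without wild-type pool 1 and 26 without wild-type pool 2, against 231 with all pools. Without wild-type pool 4 or null pool 3, 0 members were called by limma, with 12 and 14 at an unadjusted p under 0.05. Without null pool 4, Neurod4 and Nhlh2 were called. Without null pool 2, Myt1, Neurod4 and Nhlh2 were called, and without null pool 1, Insm1, Myt1, Nefm, Neurod4, Nhlh1 and Nhlh2. A normexp background correction of the mean spot signals left 0 members and 0 genes called by limma, with 2 members at an unadjusted p under 0.05. In the deposited value table Cntn2, Elavl3, Myt1 and Nhlh1 were the members called, beside 147 of 16943 genes called lower. Without the filter on dim probes Neurod4 alone was called, beside 27 of 27670 genes called lower.

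**Figure D1:**
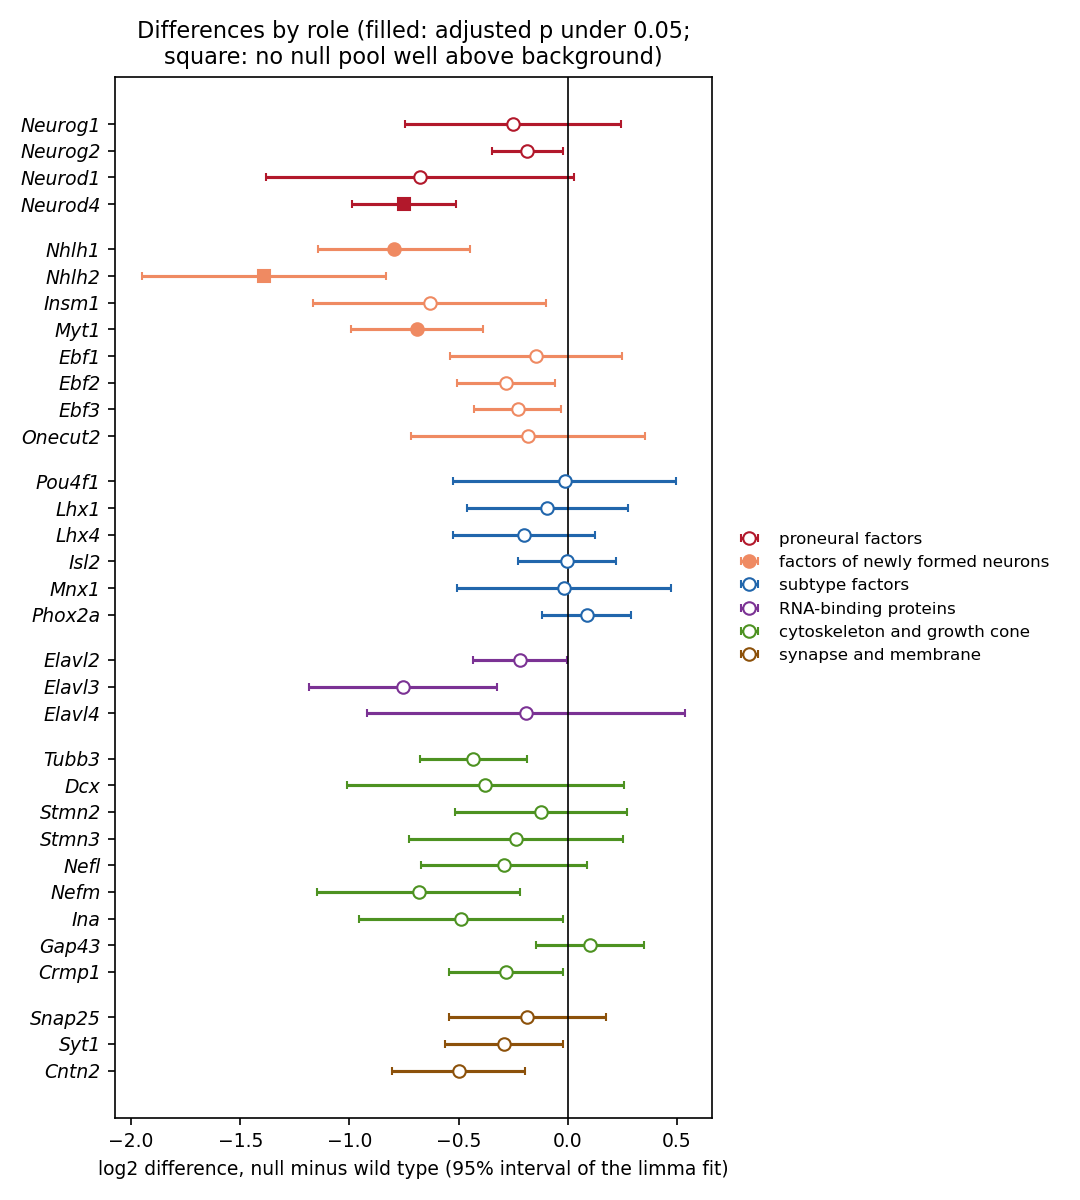
Log2 difference, null minus wild type, for each of the 33 members tested, with the 95% interval of the limma fit. Members are grouped by role, and filled points have an adjusted p under 0.05. Squares mark Neurod4 and Nhlh2, which no null pool measured well above background. Their plotted differences are readings, for which the text gives bounds of at least 1.31-fold and 1.58-fold on this scale. The filled circles are Nhlh1 at -0.80 and Myt1 at -0.69, and the points of the subtype factors lie between -0.20 and 0.09.

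Among the 4 proneural factors, 1 was called lower, beside 1.35% of all genes. The median difference was -0.46, or -0.32 with Neurod4 at its bound. Neurod4 is switched on downstream of the neurogenins in cells about to become neurons. Its probe (chr10:129779557-129779616, mm7) read -5.31, -4.99, -5.33 and -5.27 in wild-type pools 1 to 4 and was well above background in all of them. In the null pools it read -5.96, -6.12, -6.00 and -5.83 and was not well above background in any. The groups did not overlap, and Neurod4 was at least 1.31-fold higher in the wild type (limma adjusted p = 0.0132). It was called in 13 of the 19 alternative settings that tested it, among them 6 of the 8 that left out a pool. The bound compares the wild-type mean with the null pools' mean of, per array, the higher of the probe's own value and the dimmest signal among probes well above background. Here and beside the bounds of other genes below, the adjusted p comes from the readings and not from the bound. Such bounds apply to signals on the scale used here and carry no sampling error. In the deposited value table the differences were -0.33 for Neurod4 and -0.58 for Nhlh2, smaller than their bounds.

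The neurogenins stand at the top of this cascade. Neurog2, which drives neuron formation in the neural tube and in placode-derived ganglia, read -0.66, -0.61, -0.63 and -0.66 in the wild-type pools. Its null readings were -0.96, -0.74, -0.78 and -0.81. Every null pool was below every wild-type pool, by a small margin, and the difference of -0.18 (SE 0.07) was not called (limma adjusted p = 0.191). Neurog1, which is needed for sensory neurons of the head and trunk, read -3.13, -3.07, -2.66 and -2.50 in the wild type and -3.33, -3.47, -2.72 and -2.83 in the null pools. In both genotypes pools 3 and 4 read higher than pools 1 and 2, the groups overlapped, and the difference of -0.25 had an interval from -0.75 to 0.24.

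Neurod1, a factor that neurogenins turn on in new neurons, had the widest spread of the class among null pools. Its wild-type readings were -4.09, -3.81, -4.37 and -4.51. Null pool 1 read -3.99, inside the wild-type range, while null pools 2 to 4 read -4.87, -5.30 and -5.34, below it. The difference of -0.68 (SE 0.31) was not called (limma adjusted p = 0.261), and 3 of the 4 null readings were well above background.

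Of the 8 factors of newly formed neurons, 3 were called lower, beside 1.35% of all genes. The null pools lay wholly below the wild type for 5 (8.06% of all genes), and the median difference was -0.46. Nhlh2, which is in both counts, passed the filter through the wild type alone. Nhlh1 encodes a basic helix-loop-helix protein made briefly as cells leave the cell cycle. Its probe (chr1:172022461-172022520, mm7) read -2.04, -1.77, -1.92 and -2.14 in the wild type and -2.37, -3.02, -2.73 and -2.92 in the null pools. Null pool 1 was nearest to the wild type, and the groups did not overlap. The null mean was 57.6% of the wild-type mean (difference -0.80, SE 0.15, limma adjusted p = 0.0331). Nhlh1 was called in 8 of 20 alternative settings, among them 1 of the 8 that left out a pool.

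Nhlh2, its close relative, is also made in newly formed neurons. The probe (chr3:101807443-101807502, mm7) read -5.06, -4.46, -5.07 and -5.23 in the wild-type pools, all well above background. The null readings were -5.99, -6.03, -6.92 and -6.44, none of them well above background. The groups did not overlap, with null pools 3 and 4 lowest, and Nhlh2 was at least 1.58-fold higher in the wild type (limma adjusted p = 0.0265). It was called in 8 of the 19 alternative settings that tested it, among them 3 of the 8 that left out a pool.

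Myt1 encodes a zinc-finger protein that works with proneural factors in cells becoming neurons. Its probe (chr2:182328306-182328365, mm7) read -4.30, -4.08, -4.08 and -4.10 in the wild type and -4.59, -5.15, -4.67 and -4.90 in the null pools. All readings were well above background and the groups did not overlap. The null mean was 62.0% of the wild-type mean (difference -0.69, SE 0.13, limma adjusted p = 0.0331). Myt1 was called in 9 of 20 alternative settings, among them 2 of the 8 that left out a pool.

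**Figure D2:**
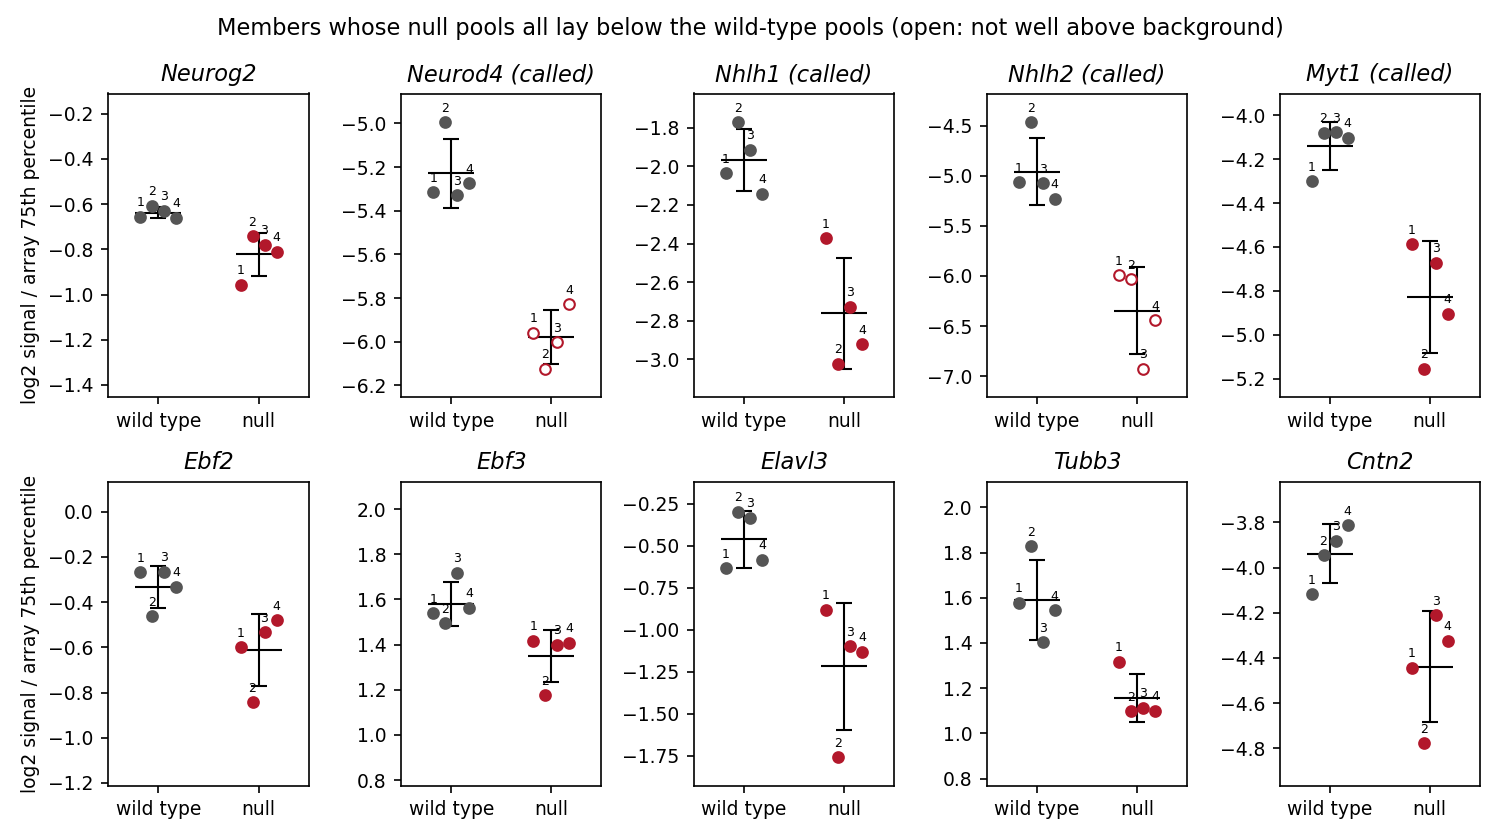
Log2 signal relative to the array's 75th percentile in each of the 8 pools (points, numbered as in the labels), with mean and SD of the 4 pools of a genotype, for the 10 members whose groups did not overlap; open points are not well above background. Each vertical axis has its own range, and null pool 2 is the lowest null reading of each gene shown except Neurog2 and Nhlh2.

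The Ebf genes encode helix-loop-helix factors that act as new neurons migrate and mature. Ebf2 read -0.27, -0.46, -0.26 and -0.33 in the wild type and -0.60, -0.84, -0.53 and -0.48 in the null pools, which did not overlap. Its difference of -0.28 was not called (SE 0.10, limma adjusted p = 0.152), but was in 1 of 20 alternative settings, the replicate block (adjusted p = 0.0422). Ebf3 read 1.54, 1.49, 1.72 and 1.56 in the wild type and 1.42, 1.18, 1.40 and 1.41 in the null pools. These groups did not overlap either, and its difference was -0.23 (SE 0.09, limma adjusted p = 0.184). Ebf1, which is also made in cells outside the nervous system, overlapped between groups and had a difference of -0.14 with an interval from -0.54 to 0.25.

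Insm1, a zinc-finger factor of dividing progenitors that will form neurons, read -2.93, -2.81, -3.33 and -3.11 in the wild type. In the null pools it read -2.98, -3.81, -3.91 and -4.01. Only null pool 1 lay within the wild-type range, and the difference of -0.63 (SE 0.23) was not called (limma adjusted p = 0.169). Without null pool 1 it was -0.86 and was called (limma adjusted p = 0.0367). That was its only call, in 1 of 20 alternative settings, and leaving out the highest null pool must enlarge the difference. Onecut2, a homeodomain factor of several young neuron types, was measured by 3 probes with differences of -0.18, -0.16 and -0.30, none called, and on each of them null pool 1 was the highest of all 8 readings.

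None of the 6 subtype factors tested was called, none had separate groups, and their median difference was -0.02. Isl2, a LIM homeodomain factor of motor and sensory neurons, read -0.56, -0.29, -0.48 and -0.51 in the wild type and -0.60, -0.32, -0.36 and -0.57 in the null pools. The readings intermingled, and the difference of 0.00 (SE 0.10) had an interval from -0.23 to 0.22. Mnx1, a homeodomain factor that fixes motor neuron identity and is also made in the notochord and gut, read -4.11, -3.75, -3.64 and -3.27 in the wild type. The null readings were -4.04, -3.94, -3.49 and -3.37, which span the same range, with a difference of -0.02 and an interval from -0.51 to 0.47.

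Lhx1 marks several classes of interneurons and is also made in the kidney anlage, and its difference was -0.09 with an interval from -0.46 to 0.27, and -0.12 on a second probe. Pool 2 was the lowest of its genotype for Lhx1, at -2.03 in the wild type and -2.07 in the null. Lhx4, a LIM homeodomain factor of motor neuron and pituitary precursors, differed by -0.20 with an interval from -0.52 to 0.13. Phox2a, needed for the oculomotor, trochlear and autonomic neurons, differed by 0.09 with an interval from -0.12 to 0.29. Lhx3, a partner of Isl proteins in motor neurons, was well above background in 1 wild-type pool and in 0 null pools and was not tested.

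Pou4f1, a POU factor of sensory neurons, gave differing readings from its probes. The brighter probe differed by -0.01 with an interval from -0.52 to 0.50, and pools 3 and 4 read above pools 1 and 2 in both genotypes. A dimmer probe differed by -0.79 (SE 0.31, limma adjusted p = 0.197 over all kept probes) and was well above background in 4 wild-type and 1 null pools. Of the 42 kept probes of members, 39 had a lower null mean and 4 were called lower, beside 1.08% of all kept probes.

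The 3 RNA-binding proteins are the neuronal Elavl family, which stabilise and splice transcripts in new neurons. None was called, and their median difference was -0.22. Elavl3, made in nearly all new neurons, read -0.64, -0.30, -0.33 and -0.58 in the wild type and -0.88, -1.76, -1.10 and -1.13 in the null pools. The groups did not overlap and null pool 2 was far below the others. Its difference of -0.75 (SE 0.19) just missed the threshold (limma adjusted p = 0.0654). It was called in 1 of 20 alternative settings, the deposited value table (limma adjusted p = 0.0429). Elavl2 was lower in the null mean by both of its probes, with differences of -0.22 and -0.24, neither called.

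Elavl4 rested on 1 array. Its brighter probe read 0.72, 0.83, 0.80 and -0.66 in the wild type and 0.27, 0.16, 0.16 and 0.33 in the null pools. Wild-type pool 4 lay below all null pools, and the 3 other wild-type pools lay above them. The difference was -0.19 with all pools (SE 0.32, limma adjusted p = 0.807) and -0.55 without wild-type pool 4 (adjusted p = 0.0506). Within slide 1 it was -0.56 and within slide 2, which holds that pool, 0.17. On the second Elavl4 probe wild-type pool 4 read -2.30, inside the wild-type range of -2.39 to -1.97, and the difference was -0.33.

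None of the 9 genes of the cytoskeleton and growth cone was called, though the null mean was lower for 8 and the median difference was -0.29. Tubb3, the neuronal beta-tubulin, is printed 10 times on each array. It read 1.58, 1.83, 1.40 and 1.55 in the wild type and 1.32, 1.10, 1.11 and 1.10 in the null pools. The groups did not overlap and null pools 2 to 4 were nearly equal. The null mean was 74.1% of the wild-type mean (difference -0.43, SE 0.11, limma adjusted p = 0.0632). The difference was called in 2 of 20 alternative settings, with the replicate block (limma adjusted p = 0.0453) and with the slide as a block (adjusted p = 0.0326).

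The 3 intermediate filament genes tested, Nefm, Nefl and Ina, form the neurofilaments of axons. Nefm, also printed 10 times, read -0.34, -0.22, -0.39 and -0.66 in the wild type and -0.49, -1.43, -1.17 and -1.26 in the null pools. Null pool 1 was inside the wild-type range and the other null pools were well below it. The difference of -0.68 (SE 0.20) was not called (limma adjusted p = 0.105), and without null pool 1 it was -0.88 and was called (adjusted p = 0.0268). Nefm was called in that 1 of 20 alternative settings only, and leaving out its highest null pool must enlarge the difference. Ina differed by -0.49 (SE 0.20, limma adjusted p = 0.222), again with null pool 1, at -2.56, inside the wild-type range. Nefl differed by -0.29 on its brighter probe and by -0.08 on its second probe, with overlapping groups.

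The remaining genes of this class act on microtubules and growth cones. Crmp1, a mediator of semaphorin signals in growth cones, differed by -0.28 (SE 0.11, limma adjusted p = 0.208). Dcx, a microtubule-binding protein of migrating neurons, differed by -0.38 with an interval from -1.01 to 0.26, and its null readings ran from -4.02 in pool 2 to -2.71 in pool 3. The stathmins, which control microtubule assembly, had overlapping groups, with differences of -0.12 for Stmn2 and -0.24 for Stmn3. For both stathmins pool 2 was the highest of its genotype. Gap43, a growth cone protein of extending axons, had the highest difference of all members, 0.10, with an interval from -0.14 to 0.35.

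Of the 4 synapse and membrane genes 3 were tested and none was called, with a median difference of -0.29. Cntn2, an adhesion protein on the first axons to grow out, read -4.12, -3.95, -3.88 and -3.81 in the wild type and -4.44, -4.78, -4.21 and -4.32 in the null pools. The groups did not overlap and the null mean was 70.8% of the wild-type mean. The difference of -0.50 (SE 0.13, limma adjusted p = 0.0791) was called in 5 of 20 alternative settings. Among them were the replicate block (limma adjusted p = 0.0401), the slide as a block (adjusted p = 0.0279) and quantile normalization (adjusted p = 0.0195). Syt1, a calcium sensor of synaptic vesicles, differed by -0.29 (limma adjusted p = 0.208), with null pools 2 and 4 lowest. A second, dimmer Syt1 probe, well above background in 3 wild-type and 1 null pools, differed by 0.04, and the mean of both probes by -0.13. Snap25, a membrane fusion protein, differed by -0.18 with an interval from -0.54 to 0.18, and by -0.15 on its second probe. Syt4, another synaptotagmin, was not well above background on any array by either of its 2 probes and was not tested.

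Of the 29 members not called, 17 had a 95% interval that held 0 and 12 had one wholly below 0. An interval wholly below 0 is the same event as a lower level at an unadjusted p under 0.05. These 12 are thus part of the 16 members already counted that way, beside 10.1% of all genes. The 12 factors of the first 2 classes had a median difference of -0.46, or -0.34 with Neurod4 and Nhlh2 at their bounds. Of them 4 were called lower (1.35% of all genes), and 7 had null pools wholly below the wild type (8.06% of all genes). Both counts include Neurod4 and Nhlh2, which passed the filter through the wild type alone. The 21 tested members of the other classes had a median of -0.22 and 0 called. Of them 8 were lower at an unadjusted p under 0.05 (10.1% of all genes) and 3 had null pools wholly below the wild type (8.06%). The difference between classes was not tested.

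The null pools were not alike. Against the wild-type mean, the median over the members was -0.14 in null pool 1, -0.49 in pool 2, -0.21 in pool 3 and -0.38 in pool 4. Null pool 1 read below the lowest wild-type pool for 14 members, pool 2 for 22, pool 3 for 20 and pool 4 for 23. Over all genes those shares were 34.6%, 33.6%, 25.6% and 22.5%. Null pool 1 was the highest of the null pools for 17 of the 33 members and for 21.0% of all genes. Null pool 2 was the lowest for 17 members and for 33.1% of all genes. Null pool 4, where the Arid3b probes read highest, was the highest null pool for 4 members and for 22.2% of all genes.

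Set against the wild-type pool of the same number, the null pool was lower for 24 members in pair 1, 30 in pair 2, 28 in pair 3 and 28 in pair 4. The medians of these within-pair differences were -0.12, -0.52, -0.25 and -0.33. Over all genes 48.4% to 53.0% were lower in the null pool of a pair. The subtype factors had medians from -0.28 to 0.12 over the 4 null pools against the wild-type mean, and the proneural factors from -0.65 to -0.39. The proneural medians use the null readings of Neurod4, none of them well above background, without its bound. They are therefore no support for a contrast between these classes, which was not tested.

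**Figure D3:**
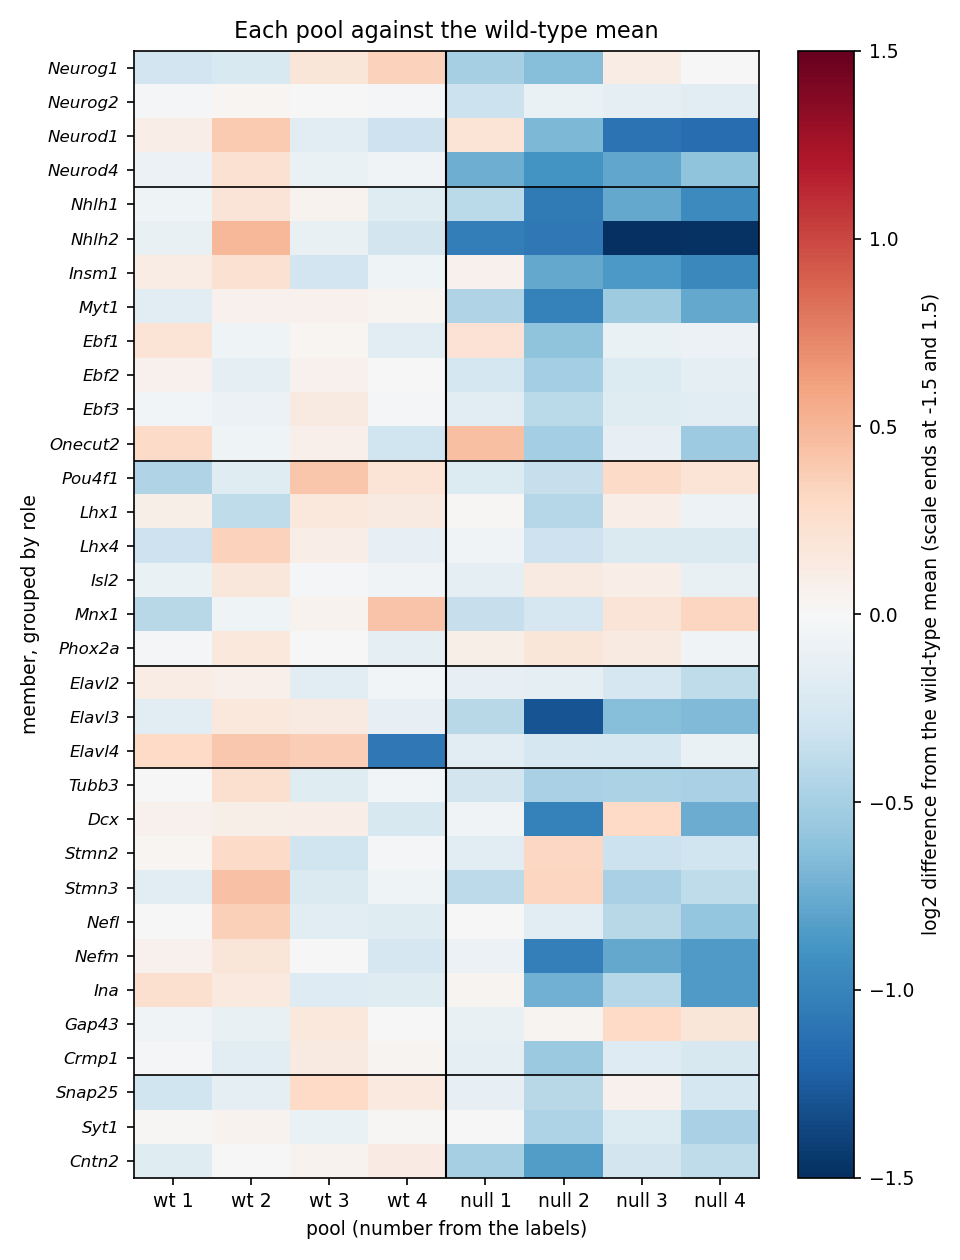
Log2 difference of each of the 8 pools from the wild-type mean for the 33 members, with a row for each member grouped by role and a column for each pool; blue is lower and red is higher, and the colour scale ends at -1.5 and 1.5. Null pool 2 is the most blue column (median -0.49) and null pool 1 the palest (median -0.14), and wild-type pool 4 of Elavl4 is the only dark blue cell among the wild-type columns.

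Related genes of the pathway were taken from lists of known function. For these and the marker lists below, the shares over all genes tested were 1.35% called lower and 2.85% called higher. Of 15 neural progenitor genes 2 were lower and 0 higher, with a median of -0.26: Fabp7, a fatty acid carrier of radial glia, at -0.68 (SE 0.12, limma adjusted p = 0.0290), and Sox3, a progenitor transcription factor, at -0.54 (SE 0.12, adjusted p = 0.0444). Of 22 Notch pathway genes 1 was lower and 2 were higher, with a median of 0.04. Heyl, a transcriptional target of Notch, was lower (-1.04, adjusted p = 0.0110), and the ligand genes Jag2 (0.69, adjusted p = 0.0331) and Dll4 (0.35, adjusted p = 0.0437) were higher. Of 11 tested genes of motor neurons and ventral progenitors 3 were lower, with a median of -0.23: Olig2, the factor of motor neuron progenitors (-0.69, adjusted p = 0.0153), Nkx2-9 of the ventral midline (-0.55, adjusted p = 0.0382) and Dbx1 of interneuron progenitors (-0.65, adjusted p = 0.0431). Null pools lay wholly below the wild type for 8 of the 15 neural progenitor genes and 5 of these 11 (8.06% of all genes). They lay wholly above it for 0 and 1 (8.08% of all genes). A lower level at an unadjusted p under 0.05 was found for 8 and 5 (10.1% of all genes), and a higher level for 0 and 1.

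Of 30 tested other neuronal genes 2 were lower and 2 higher, with a median of -0.09. Vxn, a regulator of neuron formation, was at least 1.34-fold higher in the wild type (limma adjusted p = 0.0236), and Chrna3, a nicotinic receptor subunit, at least 1.06-fold (adjusted p = 0.0431). Neither was well above background in any null pool, so both passed the filter through the wild type alone. Their calls are no support for a shift of that list. Nrn1, an anchored growth factor of axons, went the other way. It read -3.58, -3.42, -3.36 and -3.52 in the wild type and -0.99, -0.01, -1.13 and -1.30 in the null pools, 6.11-fold higher with no overlap (limma adjusted p = 0.00427). Prph, an intermediate filament of peripheral neurons, was higher by 0.62 (adjusted p = 0.0427), from readings well above background in 2 wild-type and 3 null pools. The 11 posterior Hox genes, a gauge of axial stage, had 0 calls by limma, 1 unadjusted p under 0.05 and a median of -0.06.

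**Figure D4:**
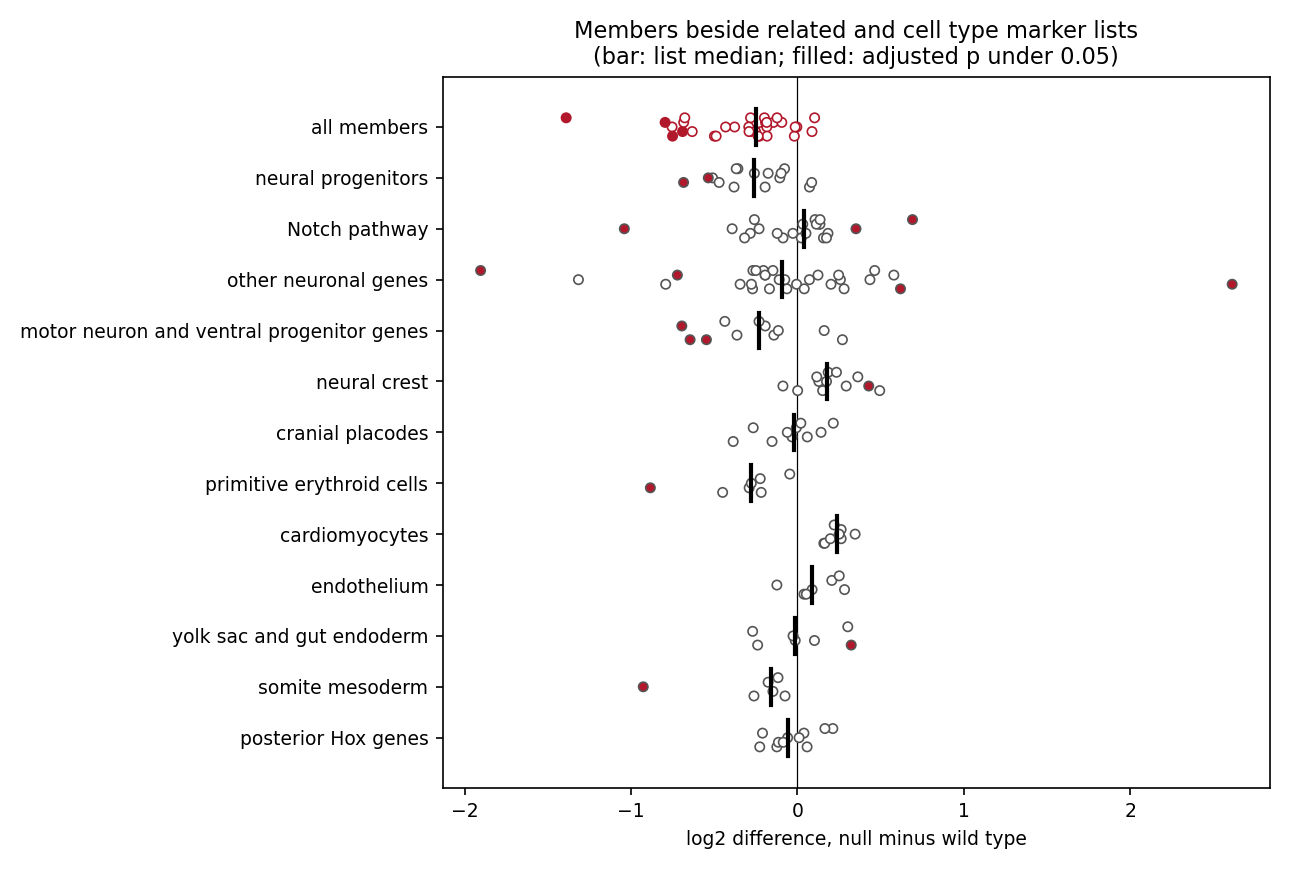
Log2 difference, null minus wild type, for each tested gene of the members, of 5 related lists and of 7 cell type marker lists (points), with the list median as a bar; filled points have an adjusted p under 0.05. The member median lies at -0.25, the neural progenitors at -0.26 and the neural crest markers at 0.18, and the far right point of the other neuronal genes is Nrn1 at 2.61. The points of Neurod4, Nhlh2, Vxn and Chrna3 rest on null readings that were not well above background.

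Markers of other cell types in a whole embryo moved in different directions. Of 12 neural crest markers 11 had a higher null mean and 1 was called, Snai2, a factor of migrating crest cells, at 0.43 (SE 0.09, limma adjusted p = 0.0377). Null pools lay wholly above the wild type for 3 of them (8.08% of all genes). A higher level at an unadjusted p under 0.05 was found for 6 of them, and for 1811 of all 17102 genes. The summed signal of the crest markers, relative to the 75th percentile, was 22.9 to 24.1 in the wild-type pools and 25.6 to 28.0 in the null pools. That of the 33 members was 22.5 to 25.2 and 18.6 to 21.5. These sums add unlogged signals, so the brightest members, Crmp1, Tubb3, Ebf3 and Elavl2, weigh most in the members' sum. None of these was called, and the called members add little to it. All 8 cardiomyocyte markers had a higher null mean with none called (median 0.24, 3 at an unadjusted p under 0.05), and their summed signal was 227 to 243 in the wild type and 269 to 297 in the null. The 7 erythroid markers had a median of -0.28, with Klf1, the erythroid master regulator, lower (-0.88, adjusted p = 0.0377), and overlapping summed signals of 263 to 419 and 216 to 376. Placode markers (median -0.02), endothelial markers (0.09) and endoderm markers (-0.01) had overlapping summed signals, with Sox17, a factor of endoderm and endothelium, higher (0.32, adjusted p = 0.0431). Somite markers had a median of -0.16 and Pax1, of the sclerotome, was lower (-0.93, adjusted p = 0.0132). Of the 59 markers on the 7 lists 57 were tested, and the part of cell composition in the members' values was not tested.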

How the data were processed

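Each RNA pool was hybridised to a 1-colour Agilent whole mouse array. Per the file headers the scans were quantified with Feature Extraction version 9.5.3.1. The deposited processed intensity is the Cy3 signal after background subtraction and detrending within the array, per the file headers, with no scaling between arrays. The deposited mean and background intensity of each spot served only an alternative correction by normexp with an offset of 50. The deposited value table, on a log2 scale, covers 27108 probes and served as an alternative. Its column medians were 9.44 to 9.47, its correlations with the processed signal of the same array, in log2, were at least 0.988, and the sources used here do not describe its normalization.

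Of 45018 spots, 1639 control spots and 87 to 175 outlier-flagged spots an array were left out, and spots of a probe were averaged on the log2 scale, giving 41174 probes. Each array's 75th percentile, a signal of 1280 to 1703, was subtracted. Kept were 25559 probes well above background (in at least 0.5 of their spots) on at least 4 of 8 arrays with at least 2 values a group, and the brightest kept probe stood for its gene (17102 genes). The fit was limma 3.58.1 in R 4.3.3, by genotype, two-sided, with Benjamini-Hochberg adjustment over all genes. The number of arrays limits the precision.

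Names were updated through the RefSeq table of GRCm38.p6: 22944 probes by accession, 6664 by symbol, 3108 by an older name, while 8458 kept the name in the file. Probe positions are those in the files, on mm7, and no position was converted.

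The labels number the pools 1 to 4 in each genotype. Deviations of same-numbered pools from their group means correlated at 0.557, 0.635, 0.523 and 0.426 over 17004 genes. The labels do not say what same-numbered pools share. The reported fit has no block, so its SEs, intervals and p-values leave this shared deviation out. The fit with the number as a block is an alternative whose counts stand beside the reported ones. With slide means removed the correlation was 0.518 on slide 1 and 0.0981 on slide 2. Members and lists were given by gene name and role, and were chosen with earlier results of these data known. Named are Arid3b, every member and, in each related or marker list, up to 4 called genes with the smallest adjusted p. For lists with no call the rule names the gene with the smallest p; for endothelium this was Tie1 (0.28, limma adjusted p = 0.0994), for cardiomyocytes Myh7 (0.35, 0.145), for placodes Gata3 (0.22, 0.228) and for posterior Hox genes Hoxb9 (0.21, 0.229). Alternatives were other scalings, background correction, probe filters and probe summaries, the deposited table, blocks, single slides and leaving out each pool.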

Additional observations from a re-analysis of the deposited data

Results flagged for a closer look

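In 8 of the 66 groups of 4 pools that the 33 members give, the highest or lowest pool stood far from the other 3 by Dixon's criterion, which chance meets in about 1 of 20 groups. In the wild type, pool 4 was lowest for Elavl4, at -0.66 against 0.72 to 0.83, and for Dcx, at -3.25 against -2.95 to -2.92. Wild-type pool 2 was lowest for Lhx1, at -2.03 against -1.55 to -1.49, and highest for Neurod4, at -4.99 against -5.33 to -5.27. Wild-type pool 1 was lowest for Myt1, at -4.30 against -4.10 to -4.08. Among the null pools, pool 2 was highest for Stmn3, at 0.33 against -0.47 to -0.37, and lowest for Ebf3, at 1.18 against 1.40 to 1.42. Null pool 1 was highest for Tubb3, at 1.32 against 1.10 to 1.11.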

How the results depend on the processing

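Over 20 alternatives, 638 of 657 member differences kept their sign, 40 values were no longer called, 11 were newly called and none turned with a call. The members' median stayed between -0.34 and -0.21 and no member was called higher in any of them. Members called lower, with genes called lower and higher over all genes, numbered 2, 32 and 125 with no shift between arrays, 1, 27 and 137 without the filter on dim probes, 7, 1012 and 1331 with the replicate block, and 0, 0 and 0 with normexp (2 members and 737 genes at an unadjusted p under 0.05) and within slide 1 or slide 2 (1880 and 2880 genes at an unadjusted p under 0.05). They were 2, 290 and 552 where probes had to be above background on all 8 arrays. Genes called lower and higher numbered 98 and 106 with each array's median subtracted, 147 and 316 in the deposited table, and 564 and 806 with the slide as a block, against 231 and 487. Leaving out a pool gave 0 to 6 members lower, 12 to 198 genes lower and 81 to 428 genes higher. Nhlh2 was not called with median subtraction, nor Neurod4 or Nhlh2 in the deposited table. Median subtraction moved the median of all genes to -0.10. The causes were not tested, and dim null readings limit Neurod4 and Nhlh2 to bounds on the reported scale.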
